A study of Mus musculus with 6 samples.

Results

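The 9 genes described here are the receptors, coreceptors and transcription factors of the Hedgehog pathway: the coreceptors Gas1, Boc and Cdon, the receptor Ptch1, the ligand-binding inhibitor Hhip, the signal transducer Smo, and the factors Gli1, Gli2 and Gli3. They were taken by symbol, through their Ensembl identifiers, from the 55401 genes of one RNA-seq count table of C3H10T1/2 cells, mouse mesenchymal stem cells that are kept as a line and can be driven toward bone, fat or muscle. The table holds 6 libraries. Cells carrying a control short hairpin RNA (shControl), one that targets Nfib (shNFIB) or one that targets Kmt2a, which encodes MLL1 (shMLL1), were sequenced at day 0, as confluent cells without treatment, and at day 7 of osteogenic medium, in which dexamethasone was at 0.1 µM, β-glycerophosphate at 20 mM and ascorbic acid 2-phosphate at 100 µg/ml. All lines share the C3H10T1/2 background, which the labels give as WT, and the lines differ in the hairpin they express. Each of the 6 conditions has 1 library. A difference between a pair of libraries therefore has no replicate check and is given with a 95% interval that covers counting error only.

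Hedgehog ligands bind Ptch1, which in their absence keeps Smo inactive, and Gas1, Boc and Cdon present the ligand to Ptch1. Active Smo collects in the primary cilium and changes the processing of the Gli proteins. Gli2 acts mainly as an activator and Gli3 mainly as a repressor, while Gli1 is itself switched on by the pathway and is widely read as a measure of its activity. Ptch1 and Hhip are also pathway targets and limit the signal. In mesenchymal cells Hedgehog signalling is known for its part in the formation of bone and cartilage.

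Total counts were between 21608680 and 34774066 per library, and levels are given as CPM, counts divided by a library size that was adjusted with TMM factors so that most genes match between libraries. The hairpin targets were lower in the lines raised against them. At day 0 Nfib had 116 CPM in shControl against 35.3 in shNFIB, and at day 7 83.5 against 8.15. The Nfib level of the shMLL1 libraries fell short of these control values too, with 65.5 CPM on day 0 and 72.7 CPM on day 7. For Kmt2a, shControl had 74.7 CPM and shMLL1 30.9 at day 0, and 66.3 and 34.8 at day 7. Kmt2a in shNFIB exceeded the control values, with 86.5 CPM on day 0 and 94.0 CPM on day 7. The 10 mesenchymal markers summed to between 8222 and 20256 CPM in the 6 libraries, and those of muscle, epithelial, endothelial and immune cells to at most 25.4 CPM, with Epcam, Krt18 and Cd3e at 0 counts in all 6. The label of mesenchymal cells therefore fits these markers. The 8 osteoblast markers summed to 263 CPM in the shControl library of day 0 and to 1555 CPM in that of day 7, where shNFIB had 268 and shMLL1 355 CPM, and the late osteoblast gene Ibsp was at 0 counts throughout. Most of each sum was Spp1, at 217 CPM in shControl at day 0 and 1381, 226 and 303 CPM in shControl, shNFIB and shMLL1 at day 7. At day 7 Alpl was higher in shNFIB than in shControl (7.27 against 3.64 CPM), while Runx2 (30.4 against 117) and Dlx5 (3.69 against 52.5) were lower.

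Across the 7 days Gli1, Gli3 and Smo fell and Boc rose, by a quasi-likelihood test in edgeR that fitted all 6 libraries to a line term plus a day term, while Gli2, Ptch1, Gas1 and Cdon did not pass it. Of the 8 genes that had enough counts to be tested, 1 was called higher and 3 lower at an adjusted p under 0.05, against 16.8% of all 16742 tested genes called higher and 16.5% called lower. The median log2 fold change was -0.34 over the 8 genes and 0.01 over all genes tested. Hhip had too few counts for the test. All libraries of day 7 had osteogenic medium and none of day 0 had it, so time and medium cannot be told apart. The 3 lines stand in for replicates in this test. As the line is a term of the fit, the p-values rest on how evenly the lines changed between the days. They do not measure the spread between cultures of one line. With fewer cells of a type or less RNA per cell a gene would read lower in the same way, and bulk libraries cannot tell these apart.

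**Figure D1:**
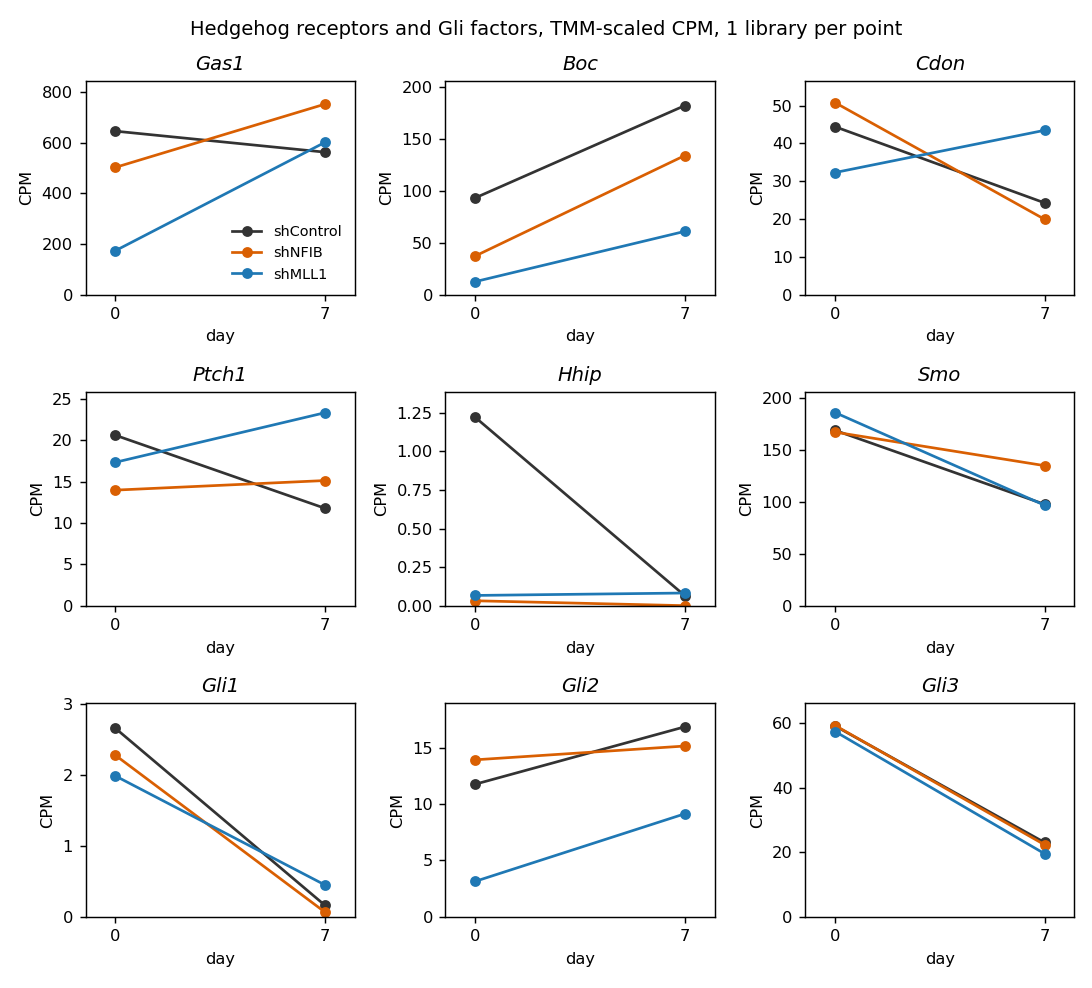
Level of each of the 9 genes in TMM-scaled CPM (vertical axis, linear, from 0, with its own range per gene) at day 0 and day 7 (horizontal axis) in shControl, shNFIB and shMLL1 cells, with 1 library per point and no error bar. Gli3 had almost the same levels in the 3 lines at each day, while Boc kept the order shControl, shNFIB, shMLL1 at both days.

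Among the 3 coreceptors Gas1 was by far the most abundant. Compared between genes per kilobase (kb) of exon, its median level over the 6 libraries was 196.3 CPM per kb, against 17.3 for Boc and 4.91 for Cdon. Between 93.9% and 99.1% of the tested genes lay below it in every library. Gas1 (ENSMUSG00000052957, chr13:60174405-60177365, minus strand of GRCm38) encodes a membrane-anchored protein that was named for its rise in growth-arrested fibroblasts. It was at 645, 502 and 173 CPM in shControl, shNFIB and shMLL1 at day 0, and at 562, 751 and 600 CPM at day 7. The shMLL1 library at day 0 stood below the other 5, which lay between 502 and 751 CPM, and the levels of the 2 days overlapped.

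Within the lines Gas1 went in different directions. In shControl its log2 ratio of day 7 to day 0 was -0.20 (95% counting interval -0.23 to -0.17), in shNFIB it was 0.58 (0.55 to 0.61) and in shMLL1 1.79 (1.75 to 1.84), a 3.47-fold higher level. The day effect over the lines was 0.72 on the log2 scale (SE 0.39, adjusted p = 0.186). At day 0 Gas1 was 3.73-fold lower in shMLL1 than in shControl (log2 ratio -1.90, -1.94 to -1.85), and at day 7 the log2 ratio was 0.10 (0.06 to 0.13). The lincRNA Gm48488 overlaps Gas1 on the opposite strand, but held at most 215 counts, where Gas1 had 5224 to 22213.

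Boc (ENSMUSG00000022687, chr16:44485049-44558897, minus strand) is an immunoglobulin-type membrane protein that, like Cdon, binds Hedgehog ligands. Its levels were 93.1, 37.1 and 12.4 CPM in shControl, shNFIB and shMLL1 at day 0, and 182, 134 and 60.8 CPM at day 7. Every line was higher at day 7, although shMLL1 at day 7 stayed below shControl at day 0. The rise over the lines was 1.70 on the log2 scale (SE 0.28, adjusted p = 0.00595). By line the log2 ratio of day 7 to day 0 was 0.97 (0.90 to 1.03) in shControl, 1.85 (1.75 to 1.94) in shNFIB and 2.29 (2.13 to 2.46) in shMLL1. The ratio was thus larger in the lines that started lower. The call depended on the pairing of the 2 days by line: without it the adjusted p was 0.160.

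Boc was also the gene that differed most between the lines in the same direction at both days. In shNFIB it was 2.51-fold lower than in shControl at day 0 (log2 ratio -1.33, -1.43 to -1.23) and 1.36-fold lower at day 7 (-0.44, -0.50 to -0.38). In shMLL1 it was 7.49-fold lower at day 0 (-2.91, -3.06 to -2.75) and 2.99-fold lower at day 7 (-1.58, -1.66 to -1.50). Over both days the log2 fold change against shControl was -0.93 (SE 0.33, adjusted p = 0.329) in shNFIB and -2.25 (SE 0.35, adjusted p = 0.0980) in shMLL1, so neither passed the threshold. For shMLL1 the side of the threshold changed with the method: the adjusted p was 9.99e-07 with DESeq2, 2.68e-05 with all genes of at least 1 count in the edgeR fit and 0.0206 with only the 4 libraries of shControl and shMLL1, but 1 without the day as a term.

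Cdon (ENSMUSG00000038119, chr9:35421128-35507652, plus strand) is the close relative of Boc and is also known to promote muscle differentiation. It was at 44.4, 50.8 and 32.3 CPM in shControl, shNFIB and shMLL1 at day 0, and at 24.3, 19.9 and 43.5 CPM at day 7. Day 7 was lower in shControl (log2 ratio -0.87, -1.0 to -0.74) and shNFIB (-1.35, -1.49 to -1.21) and higher in shMLL1 (0.43, 0.30 to 0.56). The effect over the lines was -0.60 (SE 0.34, adjusted p = 0.203). Without the shMLL1 libraries it was -1.15 with an adjusted p of 0.00749, so the missing call rested on that line.

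The balance of the 2 related coreceptors therefore turned over with day and line. Per kb, Boc was at 3.63 times the level of Cdon in shControl at day 0, at 1.27 times in shNFIB and at 0.667 times in shMLL1. At day 7 the same ratio of levels was 13.0, 11.6 and 2.42. The shMLL1 library at day 0 was the only one of the 6 in which Cdon exceeded Boc.

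**Figure D2:**
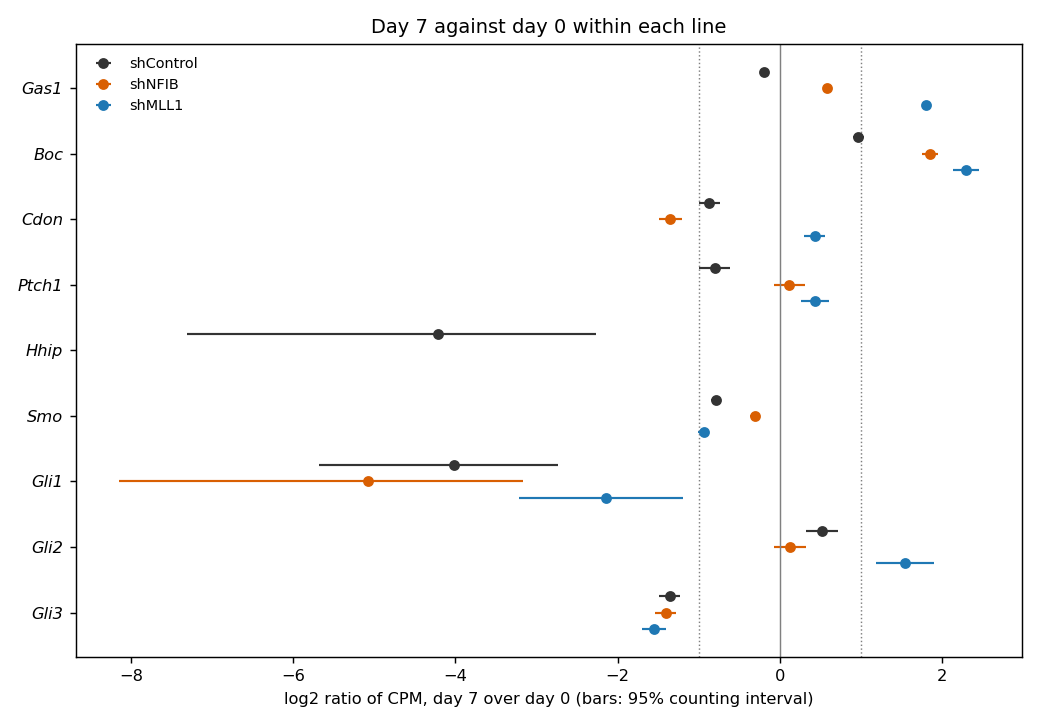
Log2 ratio of CPM at day 7 over day 0 (horizontal axis) for each gene (vertical axis) in shControl, shNFIB and shMLL1, with bars for the 95% counting interval and dotted lines at the 2-fold limits. Gli1 and Gli3 lay left of the lower limit in all 3 lines, Ptch1 and Cdon lay on opposite sides of 0 in shControl and shMLL1, and for Hhip only shControl had counts enough for a ratio.

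Ptch1 (ENSMUSG00000021466, chr13:63508328-63573598, minus strand) was at 20.6, 14.0 and 17.3 CPM in shControl, shNFIB and shMLL1 at day 0, and at 11.8, 15.1 and 23.3 CPM at day 7. The highest of the 6 levels was 1.98 times the lowest. In shControl day 7 was lower (log2 ratio -0.81, -0.996 to -0.62), in shNFIB the interval included 0 (0.11, -0.08 to 0.31) and in shMLL1 day 7 was higher (0.43, 0.25 to 0.60). The effect over the lines was -0.08 (SE 0.28, adjusted p = 0.833), and its sign turned to 0.05 when libraries were scaled by size alone. At day 7 Ptch1 stood 1.98-fold higher in shMLL1 than in shControl (log2 ratio 0.99, 0.79 to 1.18).

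Hhip (ENSMUSG00000064325, chr8:79965851-80058006, minus strand) encodes a membrane protein that binds and sequesters the ligand. At day 0 its counts were 39 in shControl, 1 in shNFIB and 2 in shMLL1, and at day 7 they were 2, 0 and 2. A single library thus carried almost all reads of Hhip. The log2 ratio of day 7 to day 0 in shControl, from 2 and 39 counts, was -4.22 (-7.31 to -2.27). At day 0 the log2 ratio to shControl, from 1 and 2 counts in the knockdown lines, was -5.27 (-10.61 to -2.71) for shNFIB and -4.20 (-7.30 to -2.25) for shMLL1. Counts of 3 or fewer were at the floor of these libraries, which was between 0.0939 and 0.123 CPM, so no ratio was formed between the other libraries.

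Smo (ENSMUSG00000001761, chr6:29735503-29761365, plus strand) is the membrane-spanning protein that passes the signal on. It was at 169, 167 and 186 CPM in shControl, shNFIB and shMLL1 at day 0, and at 97.8, 135 and 96.9 CPM at day 7. All 3 libraries of day 7 lay below all 3 of day 0. The fall over the lines was -0.68 on the log2 scale (SE 0.21, adjusted p = 0.0435), with log2 ratios of -0.79 (-0.86 to -0.73) in shControl, -0.31 (-0.37 to -0.25) in shNFIB and -0.94 (-1.01 to -0.87) in shMLL1. The call was close to the threshold: the adjusted p was 0.0783 with scaling by library size, 0.0642 without the line as a term, 0.236 without the shControl libraries and 0.0917 without those of shMLL1. At day 0 the log2 ratio to shControl was -0.01 (-0.07 to 0.04) for shNFIB and 0.14 (0.09 to 0.19) for shMLL1. The RNA level of Smo was far above that of Ptch1, the receptor that restrains it. Per kb, Smo was between 10.5 times the level of Ptch1, in shMLL1 at day 7, and 30.3 times, in shNFIB at day 0. The proteins were not measured.

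Promoter windows of 300 bases, from 250 before to 50 after the start, were given for 7 of the 9 genes in RefSeq on GRCm38, all but Gli1 and Boc. They were searched because the hairpin of one line is against an NFI factor and because Ptch1 and Hhip are Gli targets. The windows of Ptch1 (chr13:63565686-63565985), Cdon (chr9:35451826-35452125) and Gli3 (chr13:15463473-15463772) lay inside the spans of these genes and not at their upstream ends. The sequence at those ends was not searched. None of the 7 windows held the GLI consensus GACCACCCA on either strand, which 0.2527% of all 32851 windows hold. The NFI palindrome, TTGGC followed after 5 bases by GCCAA, was in none of them either and in 0.03653% of all windows. The NFI core alone, TTGGC or its reverse complement GCCAA, which every palindrome also contains, was found in Smo only among the 7 and in 46.71% of all windows. Both places are shown for the single promoter in which a member held it, with the core in capitals, at 133 and 37 bases before the start, on the plus strand of chr6:29735356-29735376 and chr6:29735452-29735472.
Smo, distal core: tttaggccGCCAAagctgggg
Smo, proximal core: ggccgggcTTGGCtccgcgag
A core of this length is common, and a match is a description of the sequence and not a site of binding. Smo was not called in the shNFIB test (log2 fold change 0.24, SE 0.25, adjusted p = 0.745).

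Of the Gli factors, Gli1 showed the largest difference between the days. Gli1 (ENSMUSG00000025407, chr10:127329882-127341974, minus strand) had 85, 72 and 60 counts in shControl, shNFIB and shMLL1 at day 0, and 5, 2 and 11 counts at day 7. These are 2.66, 2.28 and 1.99 CPM at day 0 against 0.164, 0.0677 and 0.451 CPM at day 7, so the groups of days did not overlap. The fall over the lines was -3.50 on the log2 scale (SE 0.63, adjusted p = 0.00804). Within the lines the log2 ratio was -4.02 (-5.68 to -2.74) in shControl, -5.07 (-8.15 to -3.17) in shNFIB and -2.14 (-3.22 to -1.20) in shMLL1. Counts at day 7 were so few that their intervals span several log2 units.

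Between the lines Gli1 could not be separated at this depth. At day 0 the log2 ratio to shControl was -0.22 (-0.70 to 0.25) for shNFIB and -0.42 (-0.92 to 0.07) for shMLL1. At day 7 it was -1.28 (-4.67 to 1.33) for shNFIB and 1.46 (-0.18 to 3.33) for shMLL1, from 2, 5 and 11 counts. Arhgap9 overlaps Gli1 on the opposite strand and had at most 86 counts. The strand setting of the counting is not given in the sources used here, so reads from the shared stretch cannot be told apart.

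Gli2 (ENSMUSG00000048402, chr1:118834132-119053619, minus strand) was at 11.8, 13.9 and 3.15 CPM in shControl, shNFIB and shMLL1 at day 0, and at 16.9, 15.2 and 9.14 CPM at day 7. Both shMLL1 libraries lay below the other 4. In shMLL1 Gli2 was 3.74-fold lower than in shControl at day 0 (log2 ratio -1.90, -2.24 to -1.57) and 1.85-fold lower at day 7 (-0.88, -1.12 to -0.65). Over both days this was -1.33 (SE 0.39, adjusted p = 0.310), which did not pass, while the fit with all genes of at least 1 count gave an adjusted p of 0.0468. By day, the log2 ratio was 0.52 (0.32 to 0.71) in shControl, 0.12 (-0.07 to 0.31) in shNFIB and 1.54 (1.18 to 1.90) in shMLL1, with an effect over the lines of 0.71 (SE 0.31, adjusted p = 0.121).

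Gli3 (ENSMUSG00000021318, chr13:15463235-15730026, plus strand) was the most even of the members across the lines. It was at 59.1, 59.3 and 57.4 CPM in shControl, shNFIB and shMLL1 at day 0, and at 23.0, 22.3 and 19.5 CPM at day 7. The fall over the lines was -1.44 on the log2 scale (SE 0.18, adjusted p = 0.00223), the smallest p among the 8 tested members. The log2 ratios by line were -1.36 (-1.49 to -1.23), -1.41 (-1.54 to -1.28) and -1.55 (-1.70 to -1.41) for shControl, shNFIB and shMLL1. At day 0 the log2 ratio to shControl was 0.00 (-0.09 to 0.10) for shNFIB and -0.04 (-0.14 to 0.05) for shMLL1, and at day 7 it was -0.04 (-0.20 to 0.11) and -0.24 (-0.41 to -0.07). The opposite-strand transcript Gm6556, with at most 86 counts, lies within Gli3.

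The ratio of Gli3 to Gli2 was lower at day 7 in every line. Gli3 had fallen in each of them, while Gli2 was not called in the fit over the lines. Within shMLL1, however, Gli2 was higher at day 7 (log2 ratio 1.54, 1.18 to 1.90), beside -1.55 for Gli3. In shControl Gli2 was higher as well (0.52, 0.32 to 0.71), and in shNFIB its interval included 0. Per kb, Gli3 was at 3.60 times the level of Gli2 in shControl at day 0, at 3.05 times in shNFIB and at 13.1 times in shMLL1. At day 7 the same ratio of levels was 0.978, 1.06 and 1.53. The RNA levels of Gli2 and Gli3 were thus near parity in shControl and shNFIB at day 7, with Gli1 below either in every library. The Gli proteins and their processing were not measured.

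In the order of levels per kb, Gas1 was highest and Gli1 and Hhip were lowest in all 6 libraries. The median over the 6 libraries was 26.9 CPM per kb for Smo, 4.19 for Gli3, 1.87 for Gli2, 1.14 for Ptch1, 0.244 for Gli1 and 0.00727 for Hhip. Several neighbours in that order overlapped: Cdon, from 2.58 to 6.58 CPM per kb over the libraries, overlapped Gli3, from 2.04 to 6.18, and Gli2, from 0.458 to 2.45, overlapped Ptch1, from 0.830 to 1.64. Smo, from 17.2 to 33.1, and Boc, from 2.79 to 40.9, also overlapped. Ptch1 did not overlap Gli1, whose highest level was 0.533 CPM per kb. Gas1, from 58.5 to 253.8 CPM per kb, overlapped no other member.

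Over the 6 libraries, Gli3 and Smo had the highest correlation of log2 CPM among the 8 tested members (Pearson r = 0.907), followed closely by Gli2 and Gas1 (0.906). Boc lay with the latter pair, at 0.871 to Gli2 and 0.869 to Gas1, and Gli1 lay with Gli3 at 0.885. These are descriptions over 6 points that share their libraries, lines and days. The genes whose log2 CPM followed Gli1 most closely, among the 13301 genes that reached 10 counts in each of the 6 libraries, were Cenpo (r = 0.991), Gm4864 (0.990) and Hace1 (0.989). Cenpo, which encodes a centromere protein, had 744, 741 and 641 counts at day 0 and 388, 339 and 373 at day 7 in shControl, shNFIB and shMLL1. Gli1 itself was below this minimum at day 7 in shControl and shNFIB.

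Read pair by pair, the share of members past a 2-fold difference was set beside that of all genes with at least 10 counts in either library. From day 0 to day 7 in shControl, 0 members were over 2-fold higher and 3 lower (Gli1, Gli3 and Hhip), where 23% of all genes were higher and 14.9% lower. In shNFIB 1 was higher (Boc) and 3 lower (Gli1, Gli3 and Cdon), against 16.6% and 13.9%. In shMLL1 3 were higher (Gas1, Boc and Gli2) and 2 lower (Gli1 and Gli3), against 25.8% and 19.9%. Gli1 and Gli3 were the only members past the limit in all 3 lines. Hhip reached 10 counts only in shControl at day 0, with 39, so in this pair it could only read lower. Gli1 in shControl and shNFIB also reached 10 counts only at day 0.

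Against shControl at day 0, shNFIB had 0 members over 2-fold higher and 2 lower (Boc and Hhip), where the shares of all genes were 7.36% and 6.33%. At day 7 it had 0 in either direction, against 8.08% higher and 13.3% lower. For shMLL1 at day 0 there were 0 higher and 4 lower (Boc, Gas1, Gli2 and Hhip), against 11.1% and 9.4%. At day 7 there was 1 higher, Gli1, whose interval included 0, and 1 lower, Boc, against 8.59% and 7.16%. Gli1 met the count minimum there only through the 11 counts of shMLL1, beside 5 in shControl, so it could not read lower. In both comparisons of day 0, Hhip met the count minimum only through the 39 counts of shControl, so it could only read lower.

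**Figure D3:**
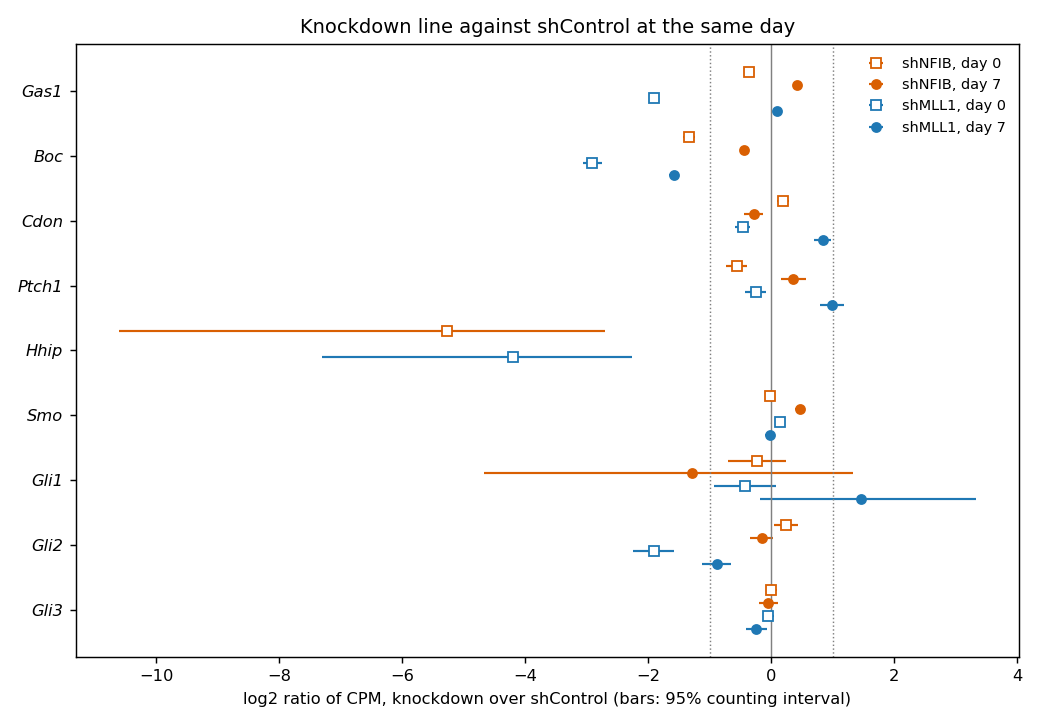
Log2 ratio of CPM in a knockdown line over shControl at the same day (horizontal axis) for each gene (vertical axis), with open squares for day 0, filled circles for day 7, bars for the 95% counting interval and dotted lines at the 2-fold limits. Boc lay left of 0 in all 4 comparisons, Gas1 and Gli2 lay far left in shMLL1 at day 0, and Gli3 lay near 0 throughout.

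In the tests over both days no member was called for either hairpin. The edgeR quasi-likelihood test called 0.113% of all genes higher and 0.263% lower in shNFIB, and 0.0119% higher and 0.0179% lower in shMLL1, so calls were rare for any gene. Without the adjustment, 2096 genes in shNFIB and 1553 in shMLL1, of the 16742 tested, had a quasi-likelihood p under 0.05. Of the 8 tested members, 1 was among them in shNFIB, Boc, and 2 in shMLL1, Boc and Gli2. Whether counts this small differ from the share over all genes was not tested. The unadjusted edgeR p of Boc was 0.0266 in shNFIB and 0.000321 in shMLL1, and that of Gli2 in shMLL1 was 0.0106. DESeq2 called 0 members in shNFIB and 1 in shMLL1, which was Boc. The other members had adjusted p values between 0.745 and 0.998 in shNFIB and between 0.646 and 0.968 in shMLL1 in the edgeR test.

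Whether a hairpin altered the change over the 7 days cannot be tested with 1 library per condition. The difference of the log2 day ratios from shControl is therefore given with its counting interval, and both sets of differences share the shControl libraries. For Ptch1 the line shNFIB gave 0.92 (0.66 to 1.19) and shMLL1 1.23 (0.98 to 1.49). For Gas1 it was 0.78 (0.74 to 0.82) and 1.99 (1.94 to 2.05), and for Boc 0.88 (0.77 to 0.997) and 1.32 (1.15 to 1.5). Gas1, Boc and Ptch1 thus had a larger day ratio in both knockdown lines than in shControl.

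Cdon and Gli2 differed in opposite directions. For Cdon shNFIB gave -0.48 (-0.67 to -0.29) and shMLL1 1.30 (1.121 to 1.48), and for Gli2 -0.40 (-0.67 to -0.13) and 1.02 (0.62 to 1.42). For Gli3 shNFIB gave -0.05 (-0.23 to 0.13) and shMLL1 -0.19 (-0.39 to -0.0016). Smo had 0.48 (0.39 to 0.57) and -0.15 (-0.25 to -0.06), and Gli1 in shMLL1 1.88 (0.28 to 3.48). The difference from shControl was nearest to 0 for Gli3 in shNFIB and for Smo in shMLL1.

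The ligands themselves were scarcely seen in these cells. Shh and Dhh had 0 counts in all 6 libraries, which allows up to 3 counts in each, or 0.123 CPM in the smallest. Ihh, the ligand of growing cartilage and bone, had 2 counts in each line at day 0, and 11, 3 and 2 counts in shControl, shNFIB and shMLL1 at day 7. In the 10 genes of ligand release and binding, 6 were tested and 2 were called higher and 2 lower over the 7 days, with a median log2 fold change of -0.35. Of all genes tested, 16.8% were called higher and 16.5% lower. The secreted carriers Scube3 (0.97, SE 0.31, adjusted p = 0.0481) and Scube2 (0.94, SE 0.22, adjusted p = 0.0187) rose. Hhat, which palmitoylates the ligand (-1.13, SE 0.24, adjusted p = 0.0135), and Disp1, which releases it (-1.10, SE 0.22, adjusted p = 0.0112), fell.

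Among 13 known or proposed Gli target genes other than Gli1, Ptch1 and Hhip, 9 were tested over the 7 days. Of these 6 fell and 1 rose, where 16.5% of all tested genes were called lower and 16.8% higher. Their median log2 fold change was -1.14 against 0.01 over all genes tested. The winged-helix gene Foxl1 (-2.80, SE 0.58, adjusted p = 0.0123), the cyclin genes Ccnd1 (-1.75, SE 0.25, adjusted p = 0.00384) and Ccnd2 (-1.19, SE 0.20, adjusted p = 0.00600), Foxc2 (-1.24), Foxf2 (-1.06) and the survival gene Bcl2 (-0.72) fell. Foxl1 had few counts: 36, 57 and 47 in shControl, shNFIB and shMLL1 at day 0, and 5, 13 and 2 at day 7. Rasl11b, a Ras-like gene, rose (2.54, SE 0.51, adjusted p = 0.0113). Ccnd1 and Ccnd2 drive the cell cycle and answer to many other signals.

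Ccnd1 was at 358, 752 and 321 CPM in shControl, shNFIB and shMLL1 at day 0 and at 154, 181 and 82.0 CPM at day 7, so the days did not overlap. Beside these falls, all 10 proliferation genes fell, with a median log2 fold change of -3.22, and their summed level went from between 2069 and 2830 CPM at day 0 to between 275 and 385 CPM at day 7. The part of this change in the fall of Gli1, Gli3, Smo and the target genes was not tested. The chondrocyte markers summed to 410, 270 and 81.0 CPM at day 0 and to 130, 90.6 and 98.6 CPM at day 7, with Acan at 0 counts. Of these markers Col2a1 was called lower over the 7 days (-4.49, adjusted p = 0.00678). Adipocyte markers summed to between 18.2 and 92.5 CPM in the 6 libraries, and 2 of the 4 tested rose over the 7 days: Plin1, a lipid droplet gene (adjusted p = 0.00223), and Pparg, the regulator of fat cell formation (0.70, adjusted p = 0.0239). Plin1 had 0 counts in all 3 libraries of day 0, and 472, 9 and 28 counts in shControl, shNFIB and shMLL1 at day 7. Beside these counts of called genes, 16.8% of all tested genes were called higher and 16.5% lower.

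Other marker lists moved with the days as well. The epithelial gene Cdh1 (-3.76, adjusted p = 0.00178) and the endothelial gene Tek (-1.85, adjusted p = 0.0348) fell, and the immune genes Cd68 (1.80, adjusted p = 0.00638) and Cd79a (adjusted p = 0.0449, at most 12 counts) rose. Of the osteoblast markers Alpl rose (4.44, adjusted p = 0.00184). It had 7, 8 and 0 counts in shControl, shNFIB and shMLL1 at day 0, and 111, 215 and 2 at day 7. Its shMLL1 counts were thus at the floor on both days. Of the mesenchymal markers Pdgfra rose (1.81, adjusted p = 0.0309) and Vim (-1.12, adjusted p = 0.0291) and Thy1 (-1.01, adjusted p = 0.00961) fell. The part of these markers in the day effects of the members was not tested.

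Of 18 intracellular regulators, 2 rose and 2 fell over the 7 days, with a median log2 fold change of 0.03. Stk36, a kinase relative that works with the Gli proteins (1.17, SE 0.30, adjusted p = 0.0248), and Iqce, which helps Smo signal at the cilium base (0.75, SE 0.23, adjusted p = 0.0427), rose. The kinase genes Gsk3b (-0.88, SE 0.22, adjusted p = 0.0227) and Prkaca (-0.79, SE 0.21, adjusted p = 0.0286), whose products phosphorylate Gli proteins, fell. In the cilium list of 26 genes, 4 rose and 1 fell, with a median of 0.21. The phosphatase gene Inpp5e (1.21, SE 0.25, adjusted p = 0.0125), Ift81 (0.73), Mks1 (0.68) and the motor gene Kif3a (0.59) rose, and Ift57 fell (-0.74). In these 2 lists most genes, 14 of 18 and 21 of 26, were not called. Neither list exceeded the shares over all genes tested, of which 16.8% were called higher and 16.5% lower.

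**Figure D4:**
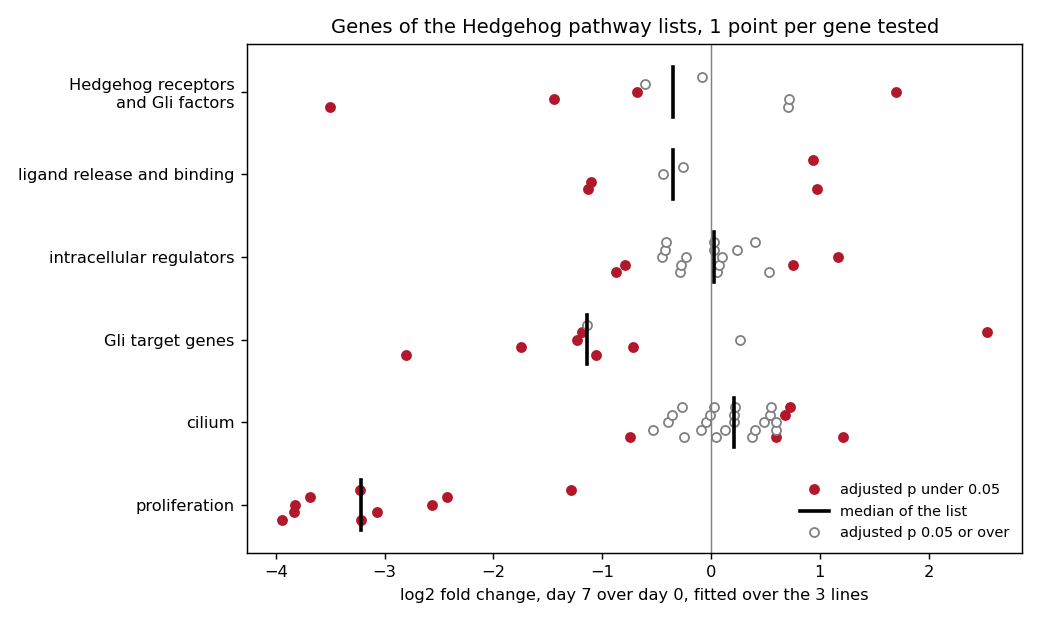
Log2 fold change from day 0 to day 7 fitted over the 3 lines (horizontal axis) for each tested gene of 6 lists (vertical axis), with filled points for an adjusted p under 0.05 and a black bar at the median of the list. The 10 proliferation genes all lay below 0, the Gli target genes had a median of -1.14, and the intracellular regulators and cilium genes lay around 0.

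Neither hairpin gave a call in the 4 pathway lists over both days in edgeR's test. In shNFIB the Gli target genes had a median log2 fold change of 0.64 against 0.04 over all genes tested, with their most abundant members Ccnd1 at 0.64 (SE 0.30, adjusted p = 0.449) and Ccnd2 at 0.62 (adjusted p = 0.356). In shMLL1 the same list had a median of -0.18 against -0.02, with Ccnd1 at -0.55 (adjusted p = 0.646) and Ccnd2 at -0.37 (adjusted p = 0.708). The medians of the intracellular regulators were 0.24 in shNFIB and -0.27 in shMLL1, those of ligand release and binding 0.24 and -0.60, and those of the cilium genes 0.11 and -0.02.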

How the data were processed

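RNA was sequenced from 6 libraries of C3H10T1/2 cells. The submitters' processing notes and the study's methods name Trimmomatic 0.39 for trimming of the paired 100 bp reads, HISAT2 2.2.1 for alignment to the GRCm38 (mm10) build, SAMtools 1.12 for a filter at a mapping quality of 30, after which PCR duplicates were removed, and HTSeq 0.11.1 for counting per Ensembl gene. The deposited table holds raw counts, as they were before the authors applied TMM normalization for their own tests. The annotation release is not given in the sources used here, and gene positions and exon lengths came from GENCODE M21, which held 55141 of the 55401 genes.

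TMM factors (0.908 to 1.13) were computed with edgeR 4.0.16 in R 4.3.3. Pairs of libraries were compared by the ratio of CPM with an exact Clopper-Pearson 95% interval, which takes in counting error alone, as reads need not be separate molecules. For the share of genes past 2-fold, counts under 3 were set to 3. The quasi-likelihood fit had line and day as terms (16742 genes kept by filterByExpr, 2 residual degrees of freedom, Benjamini-Hochberg adjustment over all of them). The line pairs the days, because both days of a line are the same hairpin cells: the deviations of the 2 days correlated at 0.436 in shControl, 0.419 in shNFIB and 0.258 in shMLL1. DESeq2 1.42.0 was an alternative. The steps were tested on simulated data, and figures were drawn with matplotlib 3.10.9 in Python 3.11.15.

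Groups came from the sample titles. Named were all members, ligands and hairpin targets, at most 4 called genes of each other list with the largest change (or else the 2 most abundant), and the 3 genes most correlated with Gli1. For the Gli targets and the cilium, called genes beyond 4 were named after their values were seen. The members and lists were chosen with earlier results of these data known. One entry of the regulators, Adrbk1, is an older symbol and matched no gene.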

Additional observations from a re-analysis of the deposited data

Results flagged for a closer look

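4 day ratios had the opposite sign in a knockdown line and in shControl, with both counting intervals excluding 0. For Ptch1 the log2 ratio of day 7 to day 0 was 0.428 in shMLL1 and -0.81 in shControl. Gas1 was at 0.582 in shNFIB and 1.79 in shMLL1, against -0.20 in shControl. Cdon was at 0.428 in shMLL1, against -0.87 in shControl. The differences between lines were not tested, because each condition has 1 library, and all 4 rest on the same shControl libraries.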

How the results depend on the processing

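The calls of Gli1 and Gli3 over the 7 days held under all alternatives run, including no line block and each line left out. The log2 day effect of Ptch1, which was not called, turned to 0.050 with library size alone and was between -0.38 and 0.23 with each line left out, positive without shControl. Without the replicate block (day alone) 0 members were called higher, and 1808 genes lower in place of 2758. With each line left out, 1004 to 2583 genes were called higher and 1098 to 2673 lower, the fewest without shControl, where 2 members were lower. In the shNFIB test uncalled values changed sign for Gli2 (-0.035 with library size), Gas1 (0.054) and Cdon (0.042, both with no day block), and in the shMLL1 test for Gli1 (-0.21 with no day block). Genes called higher and lower in shNFIB were 341 and 347 with all genes, 291 and 302 with DESeq2, 240 and 284 with only the 4 libraries compared, and 0 and 0 with no day block. In shMLL1 they were 236 and 290, 164 and 231, 84 and 110, and 0 and 0, with 2, 1 and 1 members lower in the first 3 of these. The cause was not tested.

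Over pairs, members over 2-fold higher from day 0 to day 7 in shControl were 1 with library size, with protein-coding genes or with a 1.5-fold limit, under which 6 were lower. In shNFIB at day 0, 1 was lower with at least 50 counts. In shMLL1 at day 7, 2 were higher with library size or protein-coding genes, 0 with at least 50 counts, and 3 with the 1.5-fold limit, under which 2 were lower. Library size alone moved all log2 ratios of day 7 to day 0 by 0.21 in shMLL1 and by 0.10 in shControl.

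Gli1 at day 7 and Hhip in 5 of the 6 libraries had at most 11 counts, and their counting intervals span several log2 units. With no second culture, the spread between cultures of a line is unknown.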
